A study of Mus musculus with 15 samples.

Results

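The proteasome subunits described here are the 9 genes Psmb8, Psmb9, Psmb10, Psmb5, Psmb6, Psmb7, Psme1, Psme2 and Psme3, taken by symbol from a table of read counts for 50508 gene symbols. All 9 passed the filter on low counts that left 13800 genes for testing. The proteasome is a barrel-shaped protease that degrades ubiquitin-tagged proteins, and part of its output is the peptide pool shown on MHC class I molecules. Its 20S core cuts with the subunits beta1, beta2 and beta5, encoded by Psmb6, Psmb7 and Psmb5. In haematopoietic cells and under interferon-gamma these are replaced during assembly by the immunosubunits beta1i (Psmb9), beta2i (Psmb10) and beta5i (Psmb8), which changes the residues after which proteins are cut. PA28 alpha and beta (Psme1 and Psme2), also interferon-inducible, form a cap that opens the core without ubiquitin, while PA28 gamma (Psme3) forms a nuclear cap of its own.

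RNA came from myeloid cells that flow cytometry had sorted out of mouse tumours, established for 10 days from LLC, the Lewis lung carcinoma line, of genotype Mock-LLC or Sult2B1b-LLC, the latter named for a sulfotransferase of cholesterol and oxysterols. The populations were Ly6Clow cells and Ly6Chigh cells, the latter also gated as CD11c+ MHC-II+. Mock-LLC gave 4 libraries of each population, numbered 1 to 4, and equal numbers within a tumour type were read as the same tumour. SULT2B1b-LLC gave 4 Ly6Chigh libraries and 3 Ly6Clow libraries, those of tumours 2 to 4, that of tumour 1 being not analysed here. The genotype is that of the tumour cells and not of the sorted cells, and the sources used here do not give the strain, sex or age of the mice or the number of LLC clones. The tumours are numbered, but no label says that each grew in its own mouse, so the p-values speak only of the spread among these libraries.

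Ly6Clow libraries held 19792494 to 39284008 counts and Ly6Chigh libraries 2617878 to 10626954. The shallowest, SULT2B1b-LLC Ly6Chigh tumour 1, differed from the rest: it detected 24540 genes, and 9.83% of its reads lay on Gm or Rik models, against at most 1.76% elsewhere. For the comparisons it enters, values without it are given beside the calls and for the 9 genes. The 6 gate genes (Ly6c2, Itgax, H2-Aa, H2-Ab1, Itgam and Ptprc) had counts in every group. Ly6c2 itself ran from 970.5 to 2111 CPM in Ly6Chigh and from 19.2 to 34.4 CPM in Ly6Clow libraries. Itgax, the CD11c gene, averaged 99.96 CPM (Ly6Clow) and 143.7 CPM (Ly6Chigh) for Mock-LLC. For SULT2B1b-LLC its order was reversed, at 147.9 and 101.1 CPM, and the populations overlapped in both tumour types. The MHC-II genes H2-Aa and H2-Ab1 had higher means in Ly6Chigh than Ly6Clow libraries of either tumour type. Their SULT2B1b-LLC Ly6Clow means (6232 and 7823 CPM) exceeded those of Mock-LLC Ly6Chigh (4484 and 6149 CPM). Among markers of other cells, the 5 eosinophil genes summed to 187 to 329 CPM in Ly6Clow libraries and to 0 to 17.4 CPM in Ly6Chigh libraries.

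The loci are given on GRCm38. Psmb8 (chr17:34197721-34201454, plus strand) and Psmb9 (chr17:34181987-34187764, minus strand) flank the peptide transporter gene Tap1 in the MHC. GENCODE exons of Psmb9 overlap those of Tap1 by 212 bases on the opposite strand, and exons of Psmb8 overlap the antisense model Gm20496 by 498 bases. The library kit does not mark strand, so reads in these stretches cannot be told apart. Psmb10 lies at chr8:105935735-105938444, Psmb5 at chr14:54614119-54618022, Psmb6 at chr11:70525367-70527858 and Psmb7 at chr2:38588036-38644087, where 405 exonic bases overlap Nek6, Gm13586 or Gm27634. Psme1 (chr14:55578123-55581529) and Psme2 (chr14:55587441-55591113) are neighbours on opposite strands, and Psme3 lies at chr11:101316213-101323537.

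Promoter windows, from 250 bases before to 50 bases after the start, were read from RefSeq on GRCm38.p6 for 8 of the 9 genes; Psmb7 had no entry. They are shown for the genes that differed between groups and for the constitutive counterparts, so that the letters can be set beside the values. Capitals mark matches, on either strand, to a GAS (TTCNNNGAA, the gamma-activated site), an ISRE core (GAAA, then 2 bases of any kind, then GAAA, the IRF site), an ARE core (TGACNNNGC, the site of NRF factors, which drive constitutive proteasome genes) or a CCAAT box.
Psmb8, chr17:34197945-34198244, plus strand: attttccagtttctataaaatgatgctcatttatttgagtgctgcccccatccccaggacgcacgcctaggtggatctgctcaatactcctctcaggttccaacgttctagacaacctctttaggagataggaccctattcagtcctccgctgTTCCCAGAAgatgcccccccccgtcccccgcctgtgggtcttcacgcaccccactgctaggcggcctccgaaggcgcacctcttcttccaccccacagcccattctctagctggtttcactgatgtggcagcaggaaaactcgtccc
Psmb9, chr17:34187281-34187580, minus strand: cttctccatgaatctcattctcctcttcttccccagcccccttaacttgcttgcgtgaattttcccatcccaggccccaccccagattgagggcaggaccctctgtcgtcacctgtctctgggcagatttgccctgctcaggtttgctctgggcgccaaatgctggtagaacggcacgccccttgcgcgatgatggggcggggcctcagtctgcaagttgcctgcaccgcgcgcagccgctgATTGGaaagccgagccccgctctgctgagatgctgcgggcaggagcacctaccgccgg
Psmb10, chr8:105938343-105938642, minus strand: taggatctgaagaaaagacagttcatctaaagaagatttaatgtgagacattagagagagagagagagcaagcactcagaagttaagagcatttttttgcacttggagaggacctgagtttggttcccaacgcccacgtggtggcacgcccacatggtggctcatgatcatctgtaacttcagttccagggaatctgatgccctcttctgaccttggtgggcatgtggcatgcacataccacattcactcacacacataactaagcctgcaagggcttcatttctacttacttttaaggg
Psmb5, chr14:54617946-54618245, minus strand: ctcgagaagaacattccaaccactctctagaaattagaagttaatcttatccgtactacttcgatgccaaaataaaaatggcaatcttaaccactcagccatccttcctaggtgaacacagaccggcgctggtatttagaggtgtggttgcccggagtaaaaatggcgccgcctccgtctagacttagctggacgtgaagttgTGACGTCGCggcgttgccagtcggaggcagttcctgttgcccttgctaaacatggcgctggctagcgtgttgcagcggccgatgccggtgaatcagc
Psmb6, chr11:70525107-70525406, plus strand: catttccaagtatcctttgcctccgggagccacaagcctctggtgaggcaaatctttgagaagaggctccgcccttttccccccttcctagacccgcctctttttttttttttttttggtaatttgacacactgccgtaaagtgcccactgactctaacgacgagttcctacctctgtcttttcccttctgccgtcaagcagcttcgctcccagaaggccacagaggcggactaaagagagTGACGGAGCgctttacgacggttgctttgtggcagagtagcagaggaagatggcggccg
Psme1, chr14:55578244-55578543, plus strand: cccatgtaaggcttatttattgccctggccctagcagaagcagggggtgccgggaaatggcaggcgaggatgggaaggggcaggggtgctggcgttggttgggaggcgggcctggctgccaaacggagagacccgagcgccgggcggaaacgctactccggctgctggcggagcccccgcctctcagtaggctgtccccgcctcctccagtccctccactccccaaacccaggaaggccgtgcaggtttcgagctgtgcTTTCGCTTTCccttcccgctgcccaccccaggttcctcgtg
Psme2, the first of its RefSeq starts, chr14:55591052-55591351, minus strand: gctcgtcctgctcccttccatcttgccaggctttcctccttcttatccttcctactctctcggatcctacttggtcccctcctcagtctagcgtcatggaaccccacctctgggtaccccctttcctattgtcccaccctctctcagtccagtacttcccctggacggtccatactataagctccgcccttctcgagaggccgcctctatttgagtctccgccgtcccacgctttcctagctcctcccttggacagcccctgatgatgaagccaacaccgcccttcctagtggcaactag
Psme3, chr11:101315963-101316262, plus strand: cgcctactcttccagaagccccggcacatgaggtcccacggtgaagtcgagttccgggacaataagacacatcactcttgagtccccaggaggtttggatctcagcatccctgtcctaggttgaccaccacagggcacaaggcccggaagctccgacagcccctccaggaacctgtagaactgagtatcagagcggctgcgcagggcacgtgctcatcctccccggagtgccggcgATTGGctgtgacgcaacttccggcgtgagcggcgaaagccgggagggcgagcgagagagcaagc

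The GAS of Psmb8 began 97 bases before the start, and 8.3% of the 32851 promoter windows in the table hold such a match. The ISRE core of Psme1 lay 10 bases after the start (3.44% of windows). Both constitutive genes shown held an ARE core, 47 bases before the start in Psmb5 and 9 bases before it in Psmb6 (12.4% of windows). Psmb9 and Psme3 held a CCAAT box, 8 and 14 bases before the start (37.4% of windows). No motif searched was in the windows of Psme2 or Psmb10. The Psmb9 window shares 275 bases with that of Tap1, which runs the other way. The windows of Psmb8, Psmb9 and Psme1 lie inside the GENCODE loci given above. Which motifs are found or missing therefore depends on the start used.

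The 3 immunosubunit genes had a higher level in every SULT2B1b-LLC library than in any Mock-LLC library of the same population. In Ly6Clow cells Psmb8, Psmb9 and Psmb10 were all called higher, and in Ly6Chigh cells Psmb9 was. Levels are CPM, counts scaled to a common library size, with ± for the SD over libraries, fold changes are log2 with ± for the SE, and a call is an adjusted p under 0.05 by edgeR's quasi-likelihood test with Benjamini-Hochberg adjustment over all 13800 genes. Psmb9, the beta1i subunit, cuts after hydrophobic residues where beta1 cuts after acidic ones. Its level in Mock-LLC Ly6Clow tumours 1 to 4 was 84.8, 73.9, 77.9 and 92.0 CPM, and in SULT2B1b-LLC Ly6Clow tumours 2 to 4 it was 158, 159 and 139.8 CPM. Mock-LLC Ly6Chigh tumours 1 to 4 had 123, 129.6, 118 and 116 CPM, and SULT2B1b-LLC Ly6Chigh tumours 1 to 4 had 181, 197, 210.5 and 208 CPM. The 4 groups did not overlap at any step of their order, which ran from Mock-LLC Ly6Clow through Mock-LLC Ly6Chigh and SULT2B1b-LLC Ly6Clow to SULT2B1b-LLC Ly6Chigh. Psmb9 was 1.85-fold higher in SULT2B1b-LLC Ly6Clow cells (log2 0.89 ± 0.11 SE, adjusted p = 0.00102). In Ly6Chigh cells the log2 difference was 0.71 ± 0.11 (adjusted p = 0.00515) and 0.76 without tumour 1 (adjusted p = 0.00373). Both calls held whichever library was left out, but that in Ly6Chigh cells was lost with no filter on low counts (adjusted p = 0.0866), by limma-voom with quality weights (0.0576) and in a fit of those groups alone (0.112).

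Psmb8, the beta5i subunit that carries chymotrypsin-like activity, had 241, 223, 236 and 257 CPM in Mock-LLC Ly6Clow tumours 1 to 4 and 351, 359 and 344 CPM in SULT2B1b-LLC Ly6Clow tumours 2 to 4. In Ly6Chigh cells it had 354, 376, 379.5 and 303 CPM in Mock-LLC tumours 1 to 4 and 481, 426, 421 and 473 CPM in SULT2B1b-LLC tumours 1 to 4. In neither population did the tumour types overlap, and the Mock-LLC Ly6Chigh and SULT2B1b-LLC Ly6Clow levels lay together. Psmb8 was 1.47-fold higher in SULT2B1b-LLC Ly6Clow cells (log2 0.55 ± 0.10, adjusted p = 0.0161), a call that held only without Mock-LLC Ly6Clow tumour 1 or 4 when libraries were left out in turn (adjusted p from 0.0233 to 0.118). The Ly6Clow call was also lost with no filter on low counts (adjusted p = 0.233) and with the tumour number as a block (0.0613). In Ly6Chigh cells the log2 difference of Psmb8 was 0.35 ± 0.09, which did not pass by edgeR (adjusted p = 0.0759, and 0.0919 without tumour 1). DESeq2 called Psmb8 higher there (adjusted p = 0.00983).

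Psmb10, the beta2i subunit, had 136, 171, 146 and 148 CPM in Mock-LLC Ly6Clow tumours 1 to 4, and 214, 232 and 223 CPM in SULT2B1b-LLC Ly6Clow tumours 2 to 4. In Ly6Chigh cells the values were 161, 190.3, 178 and 153 CPM in Mock-LLC and 225, 218, 252 and 219.5 CPM in SULT2B1b-LLC tumours 1 to 4. Each SULT2B1b-LLC library lay above every Mock-LLC library, and within a tumour type the populations overlapped. Psmb10 was 1.49-fold higher in SULT2B1b-LLC Ly6Clow cells (log2 0.57 ± 0.11, adjusted p = 0.0273), and this call held only without Mock-LLC Ly6Clow tumour 2 (adjusted p from 0.0289 to 0.319 as each library was left out). The Ly6Clow call was also lost with no filter on low counts (adjusted p = 0.486) and with the tumour number as a block (0.0831). In Ly6Chigh cells the log2 difference was 0.42 ± 0.11, which did not pass by edgeR (adjusted p = 0.0607, and 0.0641 without tumour 1). Psmb10 was called higher there by DESeq2 (adjusted p = 0.00546) and by edgeR with upper-quartile factors (0.049).

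Counting all 9 genes, 4 were called higher and 0 lower in SULT2B1b-LLC Ly6Clow cells, where 0.507% of all tested genes were called higher and 0.13% lower, or 0.638% in either direction. In Ly6Chigh cells 3 were called higher (0.891% of all tested genes) and 1 lower (0.725%), or 1.62% of genes in either direction. Groups did not overlap, with SULT2B1b-LLC above, for 5 of the 9 in Ly6Clow cells (7.59% of all tested genes, with 8.55% below) and for 5 in Ly6Chigh cells (2.78%), and with SULT2B1b-LLC below for 1 in Ly6Chigh cells (2.75%). Fits of the Ly6Chigh groups alone, and limma-voom with quality weights, called 0 of the 9 there, against 7 by DESeq2. Over all genes these called 3, 19 and 992 in that comparison, beside 223 in the main fit. A fit of the Ly6Clow groups alone called 5 of the 9 and 422 of all genes, beside 88 in the main fit. Replicates correlated less in Ly6Chigh libraries (median r of log2 CPM 0.83 in Mock-LLC and 0.787 in SULT2B1b-LLC) than in Ly6Clow libraries (0.968 and 0.971). The main fit shares 1 estimate of the spread per gene over all 15 libraries.

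Summed levels of some cell type markers differed between tumour types. The 5 macrophage genes summed to 5973 to 7232 CPM in Mock-LLC and 9505 to 9872 CPM in SULT2B1b-LLC Ly6Clow cells, and to 2519 to 2789 CPM and 3898 to 5551 CPM in Ly6Chigh cells. Not all 5 differed in Ly6Clow cells. C1qb averaged 3800 CPM in Mock-LLC and 5472 CPM in SULT2B1b-LLC, C1qa 1735 and 2544 CPM, and Adgre1 712 and 1085 CPM. Trem2 averaged 493 ± 40.7 and 487 ± 36.4 CPM, and Mertk 57.8 ± 10.8 and 64.3 ± 7.20 CPM. The 5 eosinophil genes summed to 187 to 237 CPM in Mock-LLC and 262 to 329 CPM in SULT2B1b-LLC Ly6Clow cells. The 5 fibroblast genes summed to 101 to 636 CPM in Mock-LLC and 567 to 1364 CPM in SULT2B1b-LLC Ly6Chigh cells. In Ly6Clow cells they summed to 128 to 287 CPM and 47.1 to 139 CPM, and these sums overlapped between tumour types in both populations. Single genes of the list did not all overlap. In Ly6Chigh cells Dcn ran from 23.3 to 112.3 CPM in Mock-LLC and 140.1 to 278.9 CPM in SULT2B1b-LLC. Pdgfra ran there from 0 to 0.27 and 5.84 to 17.9 CPM, while Col1a1, Col1a2 and Col3a1 overlapped. In Ly6Clow cells Pdgfra was lower in SULT2B1b-LLC (0 to 0.81 CPM, against 1.30 to 3.1 CPM), and the other fibroblast genes overlapped. The part of these marker genes in the differences was not tested. In sorted bulk cells a changed mix of cells cannot be told apart from a changed amount of RNA per cell. The 8 T and NK cell genes summed to at most 9.54 CPM in any library, with Cd8a and Ncr1 at 0 in all, and Ifng, which encodes interferon-gamma, had at most 5 counts in a library.

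**Figure D1:**
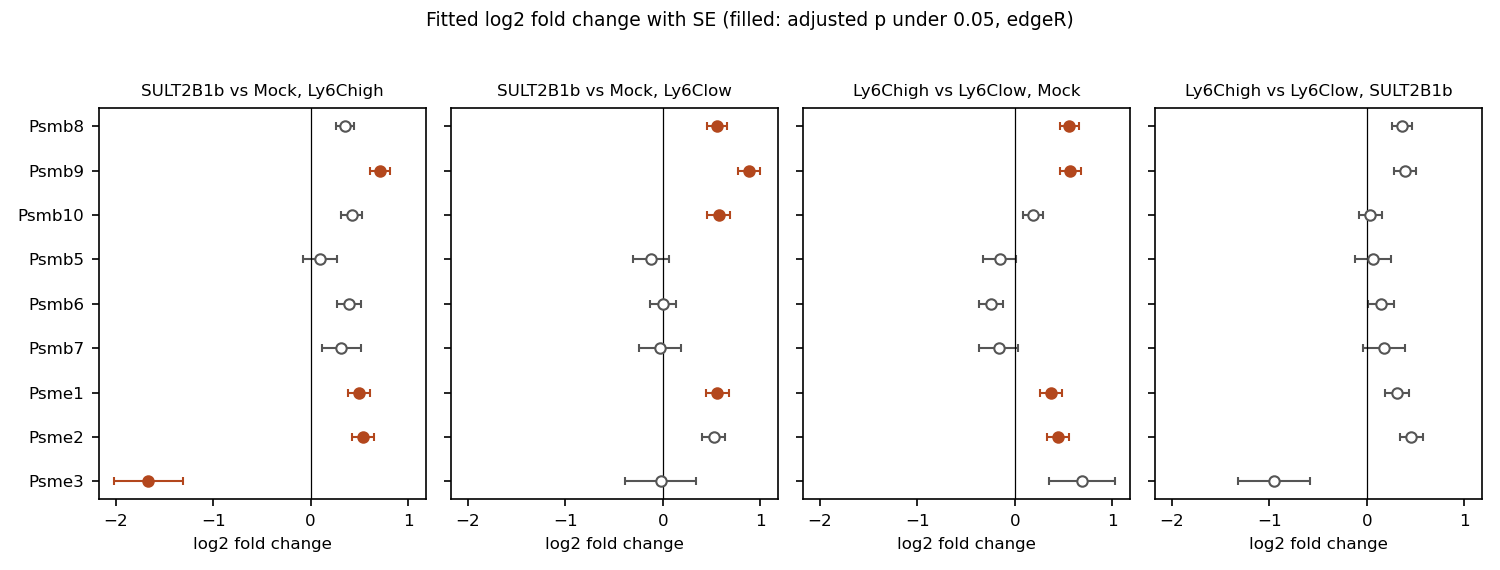
Fitted log2 fold change (x axis) of the 9 genes (y axis) in 4 comparisons, with whiskers for the SE and filled points for an adjusted p under 0.05. The filled points are the immunosubunits, Psme1, Psme2 and, to the left in Ly6Chigh cells at -1.67, Psme3, while Psmb5, Psmb6 and Psmb7 are open in all 4 panels.

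The constitutive catalytic subunits were not called by edgeR in any comparison. DESeq2 called Psmb6 higher in SULT2B1b-LLC Ly6Chigh cells (log2 0.41, adjusted p = 0.0259), where it also called Psmb8 and Psmb10. Psmb6 (beta1, caspase-like activity) averaged 202 ± 6.30 CPM (SD, n = 4) in Mock-LLC and 202 ± 6.84 CPM (n = 3) in SULT2B1b-LLC Ly6Clow cells, with a log2 difference of 0.00082 ± 0.13. Psmb5 (beta5, chymotrypsin-like) differed by -0.12 ± 0.18 and Psmb7 (beta2, trypsin-like) by -0.03 ± 0.21 in the same cells, each with an adjusted p of 1 by edgeR's test. All 3 overlapped between tumour types. In Ly6Chigh cells Psmb6 had 145, 205, 156 and 178 CPM in Mock-LLC tumours 1 to 4 and 214, 234, 190.2 and 259 CPM in SULT2B1b-LLC tumours 1 to 4. Its log2 difference of 0.39 ± 0.12 was near that of Psmb10 but the groups overlapped (adjusted p = 0.121). Psmb5 differed there by 0.10 ± 0.17 (adjusted p = 0.855). Psmb7 was uneven among the SULT2B1b-LLC Ly6Chigh libraries, with 109 and 104 CPM in tumours 2 and 4 against 62.9 and 56.7 CPM in tumours 1 and 3, where Mock-LLC ran from 61.2 to 78.0 CPM. Its log2 difference of 0.31 ± 0.20 had an adjusted p of 0.503. Without tumour 1 the differences in Ly6Chigh cells were 0.42 for Psmb6 (adjusted p = 0.0983), 0.17 for Psmb5 (adjusted p = 0.688) and 0.43 for Psmb7 (adjusted p = 0.263).

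Each immunosubunit was then set against the counterpart it replaces, as the log2 ratio of their counts in the same library, which needs no scaling between libraries. In Ly6Clow cells all 3 ratios were higher in every SULT2B1b-LLC library than in any Mock-LLC library. Psmb9 counts were 0.358 to 0.441 times those of Psmb6 in Mock-LLC and 0.699 to 0.801 times in SULT2B1b-LLC Ly6Clow cells, a log2 difference of 0.89. For Psmb8 over Psmb5 the ratio went from 3.36 to 4.30 in Mock-LLC to 5.78 to 6.76 in SULT2B1b-LLC (log2 difference 0.68), and for Psmb10 over Psmb7 from 1.53 to 2.43 to 2.96 to 3.11 (log2 difference 0.60). A two-sided exact permutation test gave p = 0.0571 for each, the smallest p that 4 libraries against 3 allow.

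Between the tumour types in Ly6Chigh cells the ratios overlapped. The log2 differences were 0.32 for Psmb9 over Psmb6 (exact permutation p = 0.114), 0.25 for Psmb8 over Psmb5 (p = 0.229) and 0.17 for Psmb10 over Psmb7 (p = 0.543). Without SULT2B1b-LLC tumour 1 they were 0.34, 0.16 and 0.06. The last ratio split the SULT2B1b-LLC libraries into tumours 1 and 3, high, and tumours 2 and 4, low, as Psmb7 did. Between populations of Mock-LLC tumours the ratios were again separate, higher in Ly6Chigh cells by 0.83 (Psmb9 over Psmb6), 0.73 (Psmb8 over Psmb5) and 0.35 (Psmb10 over Psmb7), each with an exact permutation p of 0.0286, the smallest that 4 against 4 allow. For Psmb10 over Psmb7 the ranges almost touched, with a highest ratio of 2.431 in Ly6Clow and a lowest of 2.439 in Ly6Chigh cells. Within tumours, Ly6Chigh cells had the higher ratio in 4 of 4 Mock-LLC tumours for all 3 pairs. In SULT2B1b-LLC the corresponding differences were 0.25 (no overlap, exact permutation p = 0.0571), 0.31 (p = 0.114) and -0.08 (p = 0.914). Within the 3 SULT2B1b-LLC tumours that had both libraries, Ly6Chigh cells had the higher ratio in 3 of 3 for Psmb9 over Psmb6 (mean difference 0.27) and for Psmb8 over Psmb5 (0.21), and in 1 of 3 for Psmb10 over Psmb7 (-0.19). After Benjamini-Hochberg adjustment over the 12 tests no ratio passed, the smallest adjusted p being 0.098, and the set of 12 could not have given one under 0.0571.

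**Figure D2:**
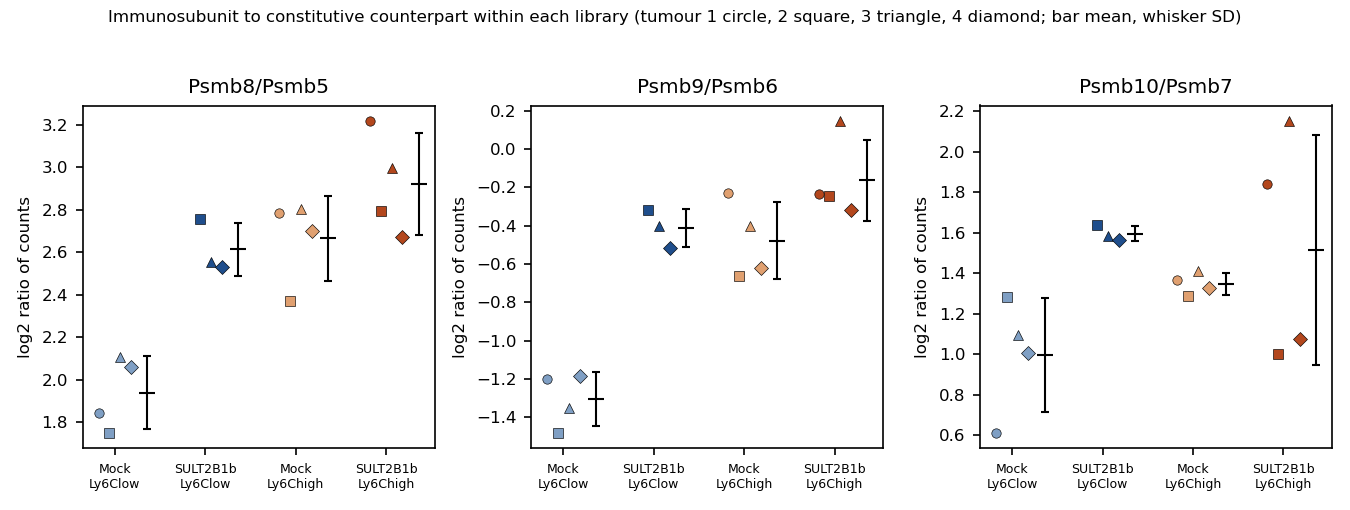
Log2 ratio of immunosubunit to counterpart counts (y axis, not starting at 0) in each library of the 4 groups, with the group mean and SD. Mock-LLC Ly6Clow libraries lie below every SULT2B1b-LLC Ly6Clow library in all 3 panels, and the Psmb10 over Psmb7 ratio of SULT2B1b-LLC Ly6Chigh libraries is spread widely (SD 0.57).

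Per kilobase of exon, the immunosubunit share of each pair could be compared between genes. Psmb9 made up 17.2 ± 1.37% of Psmb9 plus Psmb6 in Mock-LLC Ly6Clow cells, 26.9 ± 2.76% in Mock-LLC Ly6Chigh, 27.8 ± 1.37% in SULT2B1b-LLC Ly6Clow and 31.4 ± 3.21% in SULT2B1b-LLC Ly6Chigh cells. Psmb8 made up 50.5 ± 2.96%, 62.8 ± 3.29%, 61.9 ± 2.02% and 66.8 ± 3.68% of its pair in the same order. Psmb10 was the larger part of its pair throughout, at 79.9 ± 3.22%, 83.6 ± 0.52%, 85.8 ± 0.31% and 84.7 ± 4.93%. These shares rest on the union of annotated exons and shift with the length used, as given with the processing alternatives.

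Psme1 and Psme2, which form the PA28 alpha-beta cap, were both called higher in SULT2B1b-LLC Ly6Chigh cells, and Psme1 in Ly6Clow cells. Psme1 had 248, 337, 278 and 282 CPM in Mock-LLC Ly6Chigh tumours 1 to 4 and 340.4, 400.2, 434 and 441 CPM in SULT2B1b-LLC Ly6Chigh tumours 1 to 4. The groups did not overlap, though the lowest SULT2B1b-LLC library, tumour 1, lay just above the highest Mock-LLC one. The log2 difference was 0.50 ± 0.11 (adjusted p = 0.0352), and 0.58 without tumour 1 (adjusted p = 0.0125). Apart from that library, the call held only without Mock-LLC Ly6Chigh tumour 2 (adjusted p from 0.0125 to 0.11 as each library was left out). It was also lost with no filter on low counts (adjusted p = 0.224) and by limma-voom with quality weights (0.0817). By edgeR it was lost in a fit of those groups alone (0.324) and with the tumour number as a block (0.06). In Ly6Clow cells Psme1 rose from 221 ± 8.87 CPM (n = 4) to 326 ± 17.7 CPM (n = 3), a log2 difference of 0.56 ± 0.12 with no overlap (adjusted p = 0.0419). That call was lost whichever of the 7 libraries was left out (adjusted p from 0.0733 to 0.491). It was also lost with no filter on low counts (0.596) and with the tumour number as a block (0.141).

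Psme2 had 237, 192, 252 and 209 CPM in Mock-LLC Ly6Chigh tumours 1 to 4 and 343, 300.5, 286 and 365 CPM in SULT2B1b-LLC Ly6Chigh tumours 1 to 4. All 4 SULT2B1b-LLC libraries lay above the Mock-LLC range. The log2 difference was 0.54 ± 0.11 (adjusted p = 0.0276), and 0.52 without tumour 1 (adjusted p = 0.0312). The call was lost without Mock-LLC Ly6Chigh tumour 2 (adjusted p = 0.0539) or SULT2B1b-LLC Ly6Chigh tumour 4 (adjusted p = 0.0631). It was also lost with no filter on low counts (adjusted p = 0.201) and by limma-voom with quality weights (0.127). By edgeR it was lost in a fit of those groups alone (0.268) and with the tumour number as a block (0.0641). In Ly6Clow cells Psme2 was 164 ± 9.33 CPM in Mock-LLC and 236 ± 10.5 CPM in SULT2B1b-LLC, without overlap, and the log2 difference of 0.52 ± 0.12 did not pass by edgeR (adjusted p = 0.0748). It was called by DESeq2 (adjusted p = 0.00115), by limma-voom without and with quality weights (0.00796 and 5.04e-05) and by edgeR in a fit of those groups alone (0.00588). These were 4 of 11 settings, left-out libraries aside, and the adjusted p ran up to 0.596 among the 11. Reads on Psme2b, a copy of Psme2, came to 2.36% to 6.52% of Psme2 counts, and summing both, an alternative chosen after seeing the data, changed no call.

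Psme3, the PA28 gamma gene, differed from the other activators. It had 42.5, 60.3, 72.4 and 59.1 CPM in Mock-LLC Ly6Chigh tumours 1 to 4, but 17.8, 11.03, 33.8 and 11.3 CPM in SULT2B1b-LLC Ly6Chigh tumours 1 to 4. The groups did not overlap, and tumours 2 and 4, the libraries high in Psmb7, were the lowest. The log2 difference was -1.67 ± 0.35 (adjusted p = 0.0299) and -1.64 without tumour 1 (adjusted p = 0.0497). In Ly6Clow cells the tumour types overlapped at 36.4 ± 11.2 CPM in Mock-LLC and 35.8 ± 8.06 CPM in SULT2B1b-LLC (log2 -0.02 ± 0.37, adjusted p = 1). Psme3 counts were 0.0256 to 0.0778 times those of Psme1 in SULT2B1b-LLC Ly6Chigh cells, below the 0.0877 to 0.26 of all other libraries. The Ly6Chigh call was lost without Mock-LLC tumour 3 (adjusted p = 0.0692), SULT2B1b-LLC tumour 2 (0.0726) or tumour 4 (0.0715). It was also lost by limma-voom without and with quality weights (0.067 and 0.27) and by edgeR in a fit of those groups alone (0.209).

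Between populations of the same tumour type, Ly6Chigh cells of Mock-LLC tumours had more Psmb8, Psmb9, Psme1 and Psme2 RNA than Ly6Clow cells. These 4 of the 9 genes were called higher and 0 lower, where 3.55% of all tested genes were called higher and 4.86% lower, or 8.41% in either direction. The same 4 had no overlap between populations, as did 6.46% of all tested genes in that direction and 15.8% in the other. This comparison shares the Mock-LLC libraries with those above. Psmb8 rose from 239.5 ± 14.2 CPM in Ly6Clow to 353 ± 35.1 CPM in Ly6Chigh cells (log2 0.56 ± 0.09, adjusted p = 0.00203), and Psmb9 from 82.2 ± 7.98 to 122 ± 6.03 CPM (log2 0.57 ± 0.11, adjusted p = 0.00417). Psme2 differed by 0.44 ± 0.11 (adjusted p = 0.0234) and Psme1 by 0.37 ± 0.11 (adjusted p = 0.0492). With each tumour as a block, equal numbers being read as the same tumour, the calls of Psme1 (adjusted p = 0.0723) and Psme2 (adjusted p = 0.0642) were lost. With no filter on low counts the calls of Psmb9 (adjusted p = 0.0598), Psme1 (0.309) and Psme2 (0.126) were lost. The Psme1 call also depended on single libraries and held only without Mock-LLC Ly6Chigh tumour 1 or 3 (adjusted p from 0.0298 to 0.0976). Psmb10 (0.19 ± 0.11), Psmb5 (-0.16 ± 0.17), Psmb6 (-0.24 ± 0.12), Psmb7 (-0.17 ± 0.20) and Psme3 (0.69 ± 0.34) did not pass. Of the 5 neutrophil genes, Retnlg moved with population, averaging 471 ± 122 CPM in the Mock-LLC Ly6Clow and 3.52 ± 3.85 CPM in the Mock-LLC Ly6Chigh libraries, whereas S100a8, S100a9, Cxcr2 and Ly6g each averaged at most 4.42 CPM there. The 5 genes of conventional dendritic cells summed in Mock-LLC to 100.3 to 107 CPM (Ly6Clow) and 147 to 254 CPM (Ly6Chigh), and in SULT2B1b-LLC to 82.0 to 131 CPM and 225 to 297 CPM. The part of these markers in the differences was not tested.

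In SULT2B1b-LLC tumours edgeR called 0 of the 9 genes between populations, where 2.64% of all tested genes were called (1.1% higher, 1.54% lower). At an unadjusted p under 0.05 by edgeR there were 5. The largest of these, 0.021 for Psme1, ranked 1303 of the 13800 genes by p. DESeq2 called 4 of the 9 and 887 over all genes, and limma-voom 3 and 685, beside 365 over all genes by edgeR. The log2 differences were 0.46 ± 0.12 for Psme2 (adjusted p = 0.0613), 0.36 ± 0.10 for Psmb8 (adjusted p = 0.0864), 0.39 ± 0.12 for Psmb9 (adjusted p = 0.0948), 0.31 ± 0.12 for Psme1 (adjusted p = 0.222) and -0.96 ± 0.37 for Psme3 (adjusted p = 0.217). The populations did not overlap for Psme2, Psmb8 and Psmb9, 3 of the 9 genes, against 5.57% of all tested genes in that direction and 13.9% in the other. Psmb10, Psmb5, Psmb6 and Psmb7 differed by 0.03, 0.06, 0.15 and 0.17. Without tumour 1 of the Ly6Chigh group, Psmb9 (0.49, adjusted p = 0.0318) and Psme1 (0.44, adjusted p = 0.0489) were called, and the others had 0.48 (Psme2), 0.38 (Psmb8), 0.10 (Psmb10), 0.18 (Psmb5), 0.23 (Psmb6), 0.34 (Psmb7) and -0.88 (Psme3). Without tumour 3, Psme2 (0.56, adjusted p = 0.0332) and Psme3 (-1.40, adjusted p = 0.0348) were.

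Whether tumour type acted differently in the populations was tested as the interaction of both. None of the 9 genes was called (0 by edgeR, DESeq2 and limma-voom), against 0.0145% of all tested genes, and 2 had an unadjusted p under 0.05. Psme3 had the farthest value from 0, at -1.64 ± 0.50 (unadjusted p = 0.00506, adjusted p = 0.447), so the Psme3 difference was not shown to differ between populations. Psmb6 had 0.39 ± 0.18 (unadjusted p = 0.047, adjusted p = 0.687), and its p by edgeR ranked 945 of the 13800 genes. Psmb8, Psmb9 and Psmb10 had -0.20 ± 0.14, -0.18 ± 0.16 and -0.15 ± 0.16, and Psme1 and Psme2 had -0.06 ± 0.16 and 0.02 ± 0.16. Without SULT2B1b-LLC Ly6Chigh tumour 1, none of the 9 was called, with Psme3 at -1.64 (adjusted p = 0.334) and Psmb6 at 0.40 (adjusted p = 0.496).

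The rest of the proteasome was measured beside these genes. Of 11 other 20S core genes, edgeR called 0 in SULT2B1b-LLC against Mock-LLC Ly6Clow cells, where 0.638% of all tested genes were called. At an unadjusted p under 0.05 there were 0 also, and the median log2 difference was -0.03 beside -0.02 over all tested genes. In Ly6Chigh cells 1 was called higher (0.891% of all tested genes), the alpha subunit gene Psma5 (108 ± 16.1 to 172 ± 5.30 CPM, log2 0.67 ± 0.11, adjusted p = 0.0106). The median was 0.27 beside 0.03. At an unadjusted p under 0.05 there were 3 of 11, all higher. Of 18 genes of the 19S particle, which recognises and unfolds ubiquitin-tagged proteins, 0 were called in Ly6Clow cells (1 at an unadjusted p under 0.05). In Ly6Chigh cells 1 was called higher (0.891% of all tested genes), the ATPase gene Psmc3 (log2 0.42 ± 0.10, adjusted p = 0.047). There 6 had an unadjusted p under 0.05, of which 5 were higher and 1 lower. The largest of these, 0.0493 for Psmd8 by edgeR, ranked 2131 of the 13800 genes. Among 14 tested genes of assembly chaperones and other regulators, 0 were called in either population (1 at an unadjusted p under 0.05 in Ly6Clow cells and 2 in Ly6Chigh cells). The larger p of the latter, 0.0483 for Pomp by edgeR, ranked 2112 of the 13800 genes, so many genes of any kind passed this cut-off. In Ly6Clow cells an edgeR p of 0.0974, that of Psma5, ranked 744. Between populations, the 19S genes Psmd2 (-0.43 ± 0.12, adjusted p = 0.0373) and Psmd3 (-0.43 ± 0.12, adjusted p = 0.0397) were lower in Ly6Chigh cells of Mock-LLC, and Psma3 (0.60 ± 0.13, adjusted p = 0.0232) was higher in those of SULT2B1b-LLC. Without SULT2B1b-LLC Ly6Chigh tumour 1, an alternative added after seeing the data for the genes beyond the 9, the calls of Psma5 (0.69, adjusted p = 0.0126), Psmc3 (0.46, adjusted p = 0.0292) and Psma3 (0.59, adjusted p = 0.0264) held, and Nfe2l2, which encodes the factor NRF2, was called in Ly6Chigh cells (0.44, adjusted p = 0.0137, against 0.33 and 0.132 with all libraries).

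**Figure D3:**
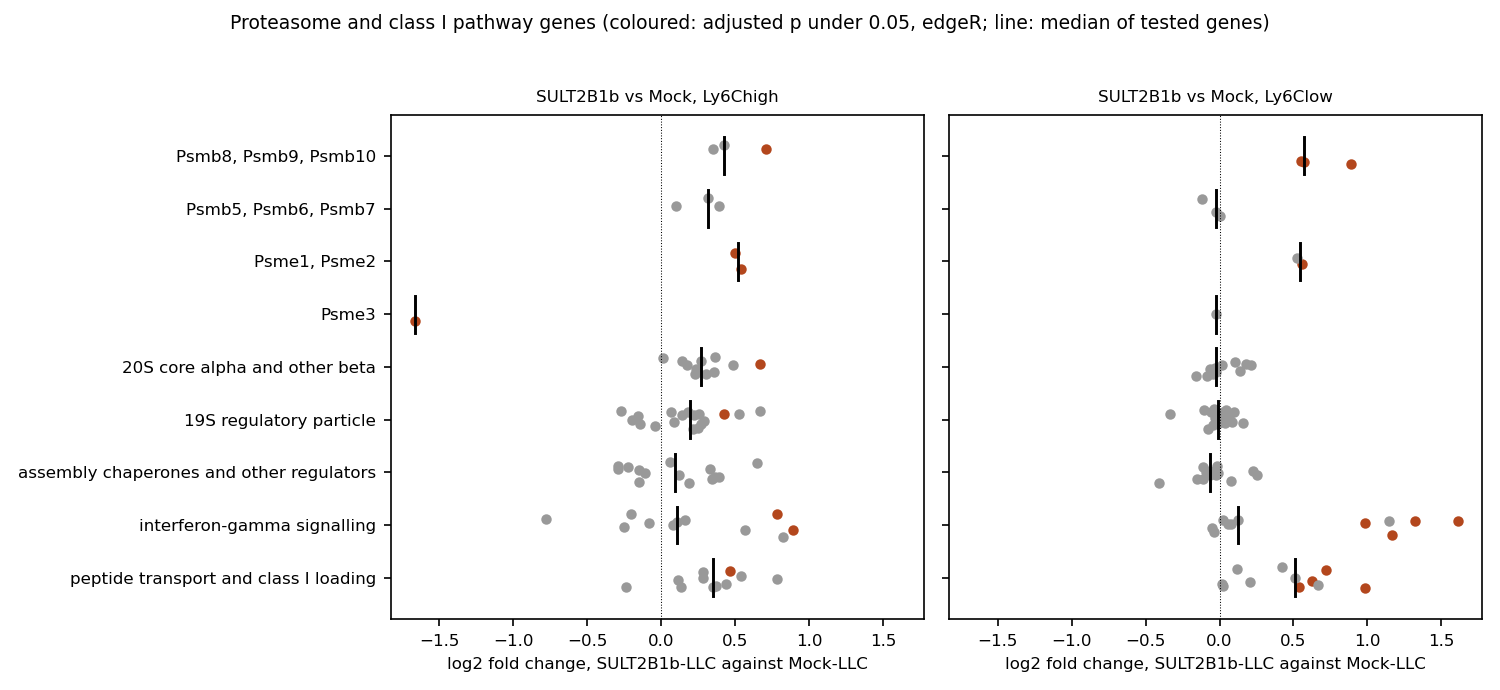
Log2 fold change of SULT2B1b-LLC against Mock-LLC (x axis) for each tested gene of 9 groups (y axis), in Ly6Chigh cells (left) and Ly6Clow cells (right), with coloured points for an adjusted p under 0.05 and a line at the group median. In Ly6Clow cells the other 20S core genes centre on -0.03, while the 3 immunosubunits lie between 0.55 and 0.89.

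Interferon-gamma pathway genes showed differences as well. IRF1 is a transcription factor that induces immunosubunits, and NLRC5 induces MHC class I genes. Of 11 tested genes of this pathway, 4 were called higher and 0 lower in SULT2B1b-LLC Ly6Clow cells (0.507% and 0.13% of all tested genes). Irf1, Nlrc5 and Ciita were among the 4. Irf1 rose from 77.6 ± 11.3 to 193.5 ± 21.2 CPM (log2 1.32 ± 0.22, adjusted p = 0.00802). Nlrc5 differed by 0.99 ± 0.19 (adjusted p = 0.0193). In Ly6Chigh cells 2 of 11 were called higher (0.891% of all tested genes), Irf1 among them (0.89 ± 0.21, adjusted p = 0.0436), while Nlrc5 had 0.16 ± 0.18 (adjusted p = 0.731). Without tumour 1 of SULT2B1b-LLC, Irf1 had 0.96 (adjusted p = 0.0388) and Nlrc5 0.14 (adjusted p = 0.77). The pathway median was 0.13 in Ly6Clow and 0.10 in Ly6Chigh cells, beside -0.02 and 0.03 over all tested genes. Between Mock-LLC populations, 5 were higher in Ly6Chigh cells and 1 lower (3.55% and 4.86% of all tested genes). Nlrc5 had 1.52 ± 0.18 (adjusted p = 9.84e-05), Irf1 1.15 ± 0.21 (adjusted p = 0.00322) and Irf8 -0.37 ± 0.10 (adjusted p = 0.0367). In SULT2B1b-LLC 0 of 11 passed by edgeR (2.64% of all tested genes did), and 5 had an unadjusted p under 0.05. In that comparison an edgeR p of 0.084, that of Tapbpl, ranked 2733 of the 13800 genes. Irf1 and Nlrc5 had 0.72 and 0.70.

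The peptides that proteasomes release are carried into the endoplasmic reticulum by TAP1 and TAP2 and loaded on class I molecules. Of 11 genes of this step 4 were called higher and 0 lower in SULT2B1b-LLC Ly6Clow cells (0.507% and 0.13% of all tested genes). Tap1, whose promoter window overlaps that of Psmb9, rose from 216 ± 14.6 to 427 ± 27.9 CPM (log2 0.99 ± 0.17, adjusted p = 0.0101). Tap2 differed by 0.62 ± 0.12 (adjusted p = 0.0193) and the class I heavy chain gene H2-K1 by 0.72 ± 0.09 (adjusted p = 0.00108). In Ly6Chigh cells 1 was called higher (0.891% of all tested genes), the tapasin gene Tapbp (0.46 ± 0.10, adjusted p = 0.0336). Tap1 (0.35 ± 0.16, adjusted p = 0.299) and Tap2 (0.44 ± 0.11, adjusted p = 0.0608) did not pass there. Without SULT2B1b-LLC tumour 1 the Tapbp call was lost (0.44, adjusted p = 0.0535), and the chaperone genes Calr (0.99, adjusted p = 0.00734) and Pdia3 (0.50, adjusted p = 0.00913) were called. The median of the 11 was 0.51 in Ly6Clow and 0.35 in Ly6Chigh cells. Between Mock-LLC populations 3 were higher in Ly6Chigh cells and 0 lower (3.55% and 4.86% of all tested genes). These were H2-K1 at 0.60 ± 0.09 (adjusted p = 0.000693), B2m at 0.99 ± 0.16 (adjusted p = 0.00152) and Tap1 at 0.69 ± 0.16 (adjusted p = 0.0145), while Tap2 had 0.27 ± 0.11 (adjusted p = 0.164). Between SULT2B1b-LLC populations 1 was higher (1.1% of all tested genes), B2m at 0.77 ± 0.18 (adjusted p = 0.028), with Tap1 at 0.05 and Tap2 at 0.08. Without tumour 1 of the Ly6Chigh group B2m had 0.91 (adjusted p = 0.0151). In the interaction 0 of the genes of these 5 lists passed, where 0.0145% of all tested genes did.

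The genes nearest to Psmb9 and Psme2 were found by the root mean square difference of centred log2 CPM over the 15 libraries, among the 8734 genes whose log2 CPM averaged at least 3. For Psmb9 they were Msmo1 (0.159), H2-T23 (0.171), Psme1 (0.185), H2-DMa (0.188) and Psmb8 (0.202). Msmo1 is an enzyme of cholesterol synthesis, H2-T23 a nonclassical class I gene and H2-DMa a chaperone of class II loading. For Psme2 they were Psmb8 (0.138), Tapbpl (0.188), the sterol synthesis gene Fdft1 (0.196), H2-T23 (0.204) and Psme1 (0.208). Psmb10 ranked 33 from Psmb9 and Psmb6, Psmb7 and Psmb5 ranked 454, 866 and 1211, while Psme3 ranked 7399. These distances are a description, since the 15 libraries share the same 4 groups and their depth. Msmo1 itself was higher in SULT2B1b-LLC than Mock-LLC cells of both populations, by 0.84 ± 0.13 in Ly6Clow (adjusted p = 0.00512) and 0.88 ± 0.13 in Ly6Chigh cells (adjusted p = 0.00309), or 0.94 without SULT2B1b-LLC tumour 1 (adjusted p = 0.00365).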

How the data were processed

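Myeloid cells from Mock-LLC and SULT2B1b-LLC tumours gave 15 libraries. Per the labels' protocols, 500 ng of spin-column RNA went into SMART-Seq v4 libraries, sequenced as single reads of 75 nt. The authors deposited raw read counts per gene symbol, read as such from whole numbers with unequal totals. Per the submitters' processing notes, STAR 2.5.3a, featureCounts and limma were used with mm10 (GRCm38); the sources used here do not state the counting options.

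The counts were scaled by TMM, filtered by filterByExpr (13800 genes kept) and fitted to the 4 groups at once with edgeR 4.0.16 (R 4.3.3, robust quasi-likelihood, two-sided). CPM and log2 fold changes are from this fit. Pair ratios used a pseudocount of 0.5 and exact permutation tests. The fit was tested on simulated counts. Exonic lengths and positions are from GENCODE mouse release 21, where 94.3% of symbols were found. No replicates agreed within sampling noise. Within a tumour type, equal numbers in the labels were read as the same tumour. Deviations of such pairs correlated only at 0.0279 to 0.0936 in Mock-LLC and -0.0103 to 0.0795 in SULT2B1b-LLC.

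All 9 members are described in every comparison. From the 5 pathway lists, counts are given, with up to 2 genes per direction by smallest adjusted p among those called, and Irf1, Nlrc5, Tap1 and Tap2 throughout; Ciita was named besides. Results for some genes that this rule names are not reported here. Members, lists and rules were chosen with earlier results of these data known. Other scalings and filters, DESeq2 1.42.0, limma-voom (limma 3.58.1), smaller fits, blocks and left-out libraries were tried.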

Additional observations from a re-analysis of the deposited data

How the results depend on the processing

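Of the 9 genes, the count called in SULT2B1b-LLC against Mock-LLC Ly6Chigh cells was 1 with no filter, 7 by DESeq2, 0 by limma-voom with quality weights and 0 with only those groups, and 1 to 4 with a library left out. Over all genes, no filter called 109, DESeq2 992, quality weights 19 and the fit of those groups 3, beside 223 in the main fit. Between SULT2B1b-LLC populations the count of the 9 was 3 with median-ratio, upper-quartile or no scaling factors, a minimum count of 50 or limma-voom, 4 by DESeq2 or quality weights, and 0 to 2 with a library left out. Over all genes those scalings called 369, 365 and 365 in turn and the minimum count 392. There limma-voom called 685, DESeq2 887 and quality weights 722, beside 365 in the main fit. With no filter the count of the 9 was 1 in Ly6Clow cells (63 over all genes) and 1 between Mock-LLC populations (605 over all genes). With a library left out it was 1 to 2 in Ly6Clow cells and 3 to 4 between Mock-LLC populations. Under the other settings, blocks aside, it was 4 or 5 in both. The cause was not tested. Median-ratio factors moved the median of all genes by 0.126 between Mock-LLC and 0.112 between SULT2B1b-LLC populations (log2).

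Between tumour types only the number is shared (correlations of -0.114 to 0.0267), and a replicate block on it left 2 calls in Ly6Chigh and 1 in Ly6Clow cells. Over all genes it called 93 and 63. The tumour block left 2 between Mock-LLC populations, and 1028 over all genes. In the blocked tests of pair ratios the smallest p was 0.125, from 4 pairs.

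Values near 0 changed sign without any call. In Ly6Clow cells Psmb7 became 0.0034 (median-ratio) and 0.0033 (DESeq2), Psme3 0.0041, 0.0040 and, by limma-voom, 0.041, and Psmb6 -0.0074 (upper-quartile), -0.013 (no factors), -0.00028 (limma-voom) and -0.034 (replicate block). In the interaction Psme2 became -0.043 (no filter), -0.024 (quality weights) and -0.014 (tumour block), and Psme1 0.0052 and 0.016 under the last pair of settings. With libraries left out, in Ly6Clow cells Psmb6 ran from -0.013 to 0.042, Psmb7 from -0.048 to 0.077 and Psme3 from -0.20 to 0.15. In the interaction Psme1 ran from -0.15 to 0.020 and Psme2 from -0.081 to 0.063. Psmb5 ran from -0.035 to 0.25 between Ly6Chigh groups and from -0.018 to 0.18 between SULT2B1b-LLC populations. The Psmb10 over Psmb7 ratio ran from -0.044 to 0.34 and from -0.29 to 0.092 in the same comparisons.

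With the longest transcript as length, the Psmb8 share was 64.4%, 74.9%, 74.3% and 78.0% (Mock-LLC Ly6Clow and Ly6Chigh, SULT2B1b-LLC Ly6Clow and Ly6Chigh), the Psmb9 share 11.97%, 19.5%, 20.1% and 23.1%, and the Psmb10 share 84.7% in Mock-LLC Ly6Chigh and 86.8% in SULT2B1b-LLC Ly6Clow cells.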

Other observations

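Psmb11, which encodes the thymus-specific subunit beta5t, had 25 counts (9.47 CPM) in the Ly6Chigh library of SULT2B1b-LLC tumour 1, 2 counts in Mock-LLC Ly6Clow tumour 4 and 0 in each of the other 13 libraries. The same library of tumour 1 held 42 counts on pseudogenes named for Psmb5, Psmb6 or Psmb7, where the others held 0 to 16. Ifng had 5 counts there, 2 in SULT2B1b-LLC Ly6Clow tumour 2, 1 in Mock-LLC Ly6Clow tumour 2 and 0 elsewhere. These counts were too low to be tested.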
